A study of Mus musculus with 24 samples.

Results

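Gpihbp1, Icam2 and Emcn are 3 genes used as markers of the capillary lining, out of 17742 genes measured in the tibialis anterior, a fast limb muscle, of mice aged 6 months. Each was found by its symbol and was read by 1 row of the array. All 3 were read lower in muscle lacking the histone chaperone Hira in its fibres: Gpihbp1 at 0.478 times, Icam2 at 0.576 times and Emcn at 0.664 times the level of control muscle. They were selected on this difference, having been called among endothelial markers in an earlier comparison of these same animals, so it is described and not tested.

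The 4 knockout animals (HiraCKO) had the genotype Myf6 cre/+; Hira flox/- and the 4 control animals Myf6 cre/+; Hira flox/+, all on a mixed C57BL6/J;129S1/SvImJ background. Each animal's RNA went on 3 arrays, 24 in all, and the values are linear probe intensities. Both groups carried the Cre, which is expressed from the locus of the myogenic factor Myf6, so the controls are not free of it. Endothelial cells are not the target of that Cre. By genotype, outside the recombined fibres, knockout animals had 1 floxed and 1 null copy of Hira, and controls 1 floxed and 1 intact copy. The Hira row itself read 8.82 ± 0.35 (log2, SD, n = 4) in HiraCKO and 8.97 ± 0.11 in control muscle and did not pass the test (difference -0.15, 95% interval -0.51 to 0.22; limma, adjusted p = 0.623), and its position relative to the floxed part is not known here, so it does not check the genotypes.

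Muscle capillaries are tubes of endothelial cells that pass fuel and oxygen to the fibres and hold back circulating leukocytes. GPIHBP1 is a membrane-anchored protein that picks up lipoprotein lipase beneath the endothelium and carries it to the capillary lumen, where the enzyme frees fatty acids from triglyceride-rich lipoproteins. ICAM2 is an adhesion molecule kept at the endothelial surface and at cell junctions, a ligand of the leukocyte integrin LFA-1, and it is found on platelets and some leukocytes as well. Endomucin, the product of Emcn, is a sialomucin of capillary and venous endothelium that hinders leukocyte adhesion and takes part in signalling by the VEGF receptor Kdr.

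The 3 genes had been chosen by adjusted p-values, which were 0.00262 for Gpihbp1, 0.0102 for Icam2 and 0.0346 for Emcn in the fit over all genes (limma, 4 animals against 4, Benjamini-Hochberg). Emcn lay just inside the threshold of 0.05, and above it in 9 of 27 alternative settings, against 2 for Gpihbp1 and 1 for Icam2. Among the 46 other pan-endothelial and capillary genes described below, Flt1 lay nearest outside it, at 0.054. In that fit 1647 genes, or 9.28%, passed the threshold, 5.01% lower and 4.28% higher in HiraCKO. Groups that did not overlap with HiraCKO lower, as in all 3 genes here, were found in 10.2% of all genes. Nothing about the 3 genes is read from these shares, since this contrast chose them.

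Gpihbp1 had intensities of 10732, 8825, 7632 and 10814 in the 4 HiraCKO animals, against 17139, 23167, 22973 and 16470.3 in the 4 control animals, each the geometric mean of 3 hybridisations. The highest knockout animal lay well below the lowest control animal, and no knockout array reached any control array (highest 13047 in HiraCKO, lowest 15715 in control). On the log2 scale the means were 13.20 ± 0.24 in HiraCKO and 14.27 ± 0.27 in control muscle (SD, n = 4 each), a difference of -1.07 ± 0.16 (SE) with a 95% interval of -1.43 to -0.71. This is 2.09 times lower. A difference further below 0 was found for 0.428% of all genes, against 1.26% for Icam2 and 3.53% for Emcn. Nothing is read from these ranks, since this contrast chose the genes. The lowest array of Gpihbp1 stood 56.8 times above 125, the highest 5th percentile of any array. That level is used here as the one under which a row is called dim. In whole muscle, fewer endothelial cells and less of these RNAs per cell cannot be told apart.

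Icam2 read 2359, 2416, 1607 and 1627 in HiraCKO animals, against 3528, 3647, 3351 and 3147 in control animals. Knockout animals 3 and 4 lay below knockout animals 1 and 2, and the 4 control animals lay close together. Here too no knockout array reached a control array (highest 2890.3 in HiraCKO, lowest 2944 in control). The log2 means were 10.94 ± 0.33 in HiraCKO and 11.74 ± 0.09 in control muscle, a difference of -0.80 ± 0.16 (SE; 95% interval -1.14 to -0.45), or 1.74 times lower.

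Emcn read 5395, 5408, 3927 and 3732 in HiraCKO animals, against 7640.4, 7144, 6419 and 6269 in control animals. The animal means did not overlap, although single arrays did: the highest knockout array, at 6373, lay above the lowest control array, at 5963. The log2 means were 12.15 ± 0.29 in HiraCKO and 12.74 ± 0.13 in control muscle, a difference of -0.59 ± 0.15 (SE; 95% interval -0.92 to -0.26), or 1.51 times lower.

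**Figure D1:**
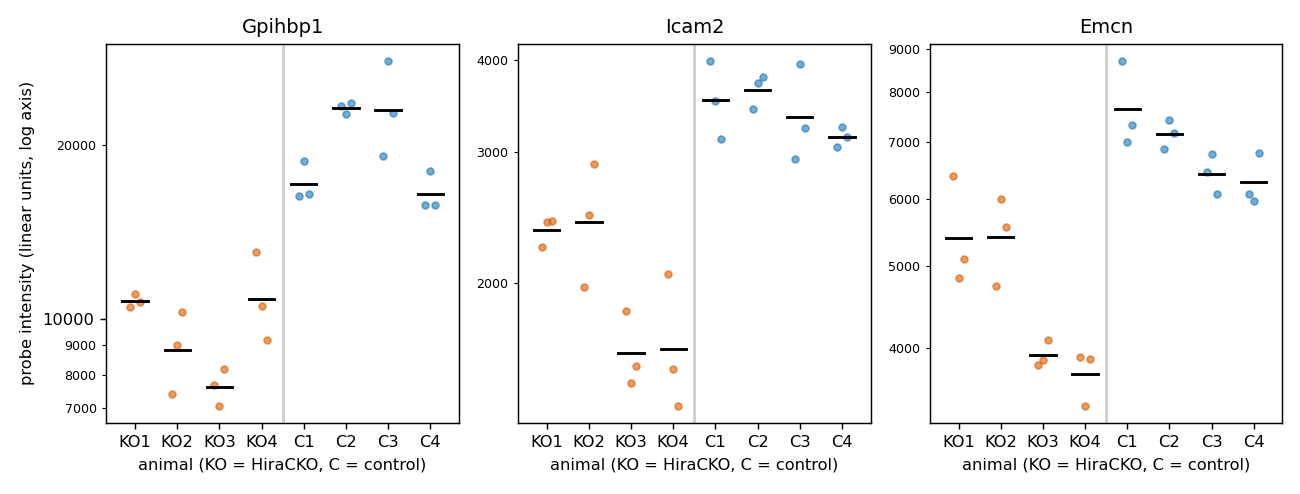
Probe intensity (linear units on a log axis) of Gpihbp1, Icam2 and Emcn in each HiraCKO animal (KO, orange) and control animal (C, blue). Points are the 3 hybridisations of an animal and bars their geometric mean. The bars of the groups are apart in each gene, and only in Emcn do knockout arrays (up to 6373) reach the lowest control arrays (from 5963).

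Of the 3 genes, only 1, Emcn, was matched in the RefSeq promoter table, and its window is shown for that reason. The 250 bases before the start of Emcn in RefSeq, on the plus strand of GRCm38.p6 at chr3:137340828-137341077, are printed with capitals marking AGGAAG or its reverse complement CTTCCT, a core bound by ETS factors such as ERG and FLI1, which are known to drive many endothelial genes.
Emcn: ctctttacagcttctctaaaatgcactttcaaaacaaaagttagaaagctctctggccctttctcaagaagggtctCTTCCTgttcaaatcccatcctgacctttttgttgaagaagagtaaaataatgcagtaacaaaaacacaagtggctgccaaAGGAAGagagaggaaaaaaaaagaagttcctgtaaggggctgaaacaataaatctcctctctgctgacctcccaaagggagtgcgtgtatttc
The window held AGGAAG 2 times, beginning at base -174 on the minus strand and at base -93 on the plus strand. Over both strands, 29.5% of 32851 promoter windows of the same length held AGGAAG at least once, and 6.25% held it 2 times or more. Of 35 windows found for 25 of the 46 other endothelial genes, 20 held it, or 57.1%. The shorter core GGAA, which AGGAAG contains, occurred 4 times, with 93.4% of all windows holding it. The window held neither CGGAAG, a second ETS form, nor the GATA-factor forms AGATAA and TGATAA, nor TATAAA, nor the GC box GGGCGG. Its GC content was 40.8%, against a median of 52.4% over all windows, and it held 1 CpG, against a median of 6. These matches describe letters in the window and no factor was measured on it.

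The 3 genes differed in how animals of 1 group varied around the group's mean, which does not use the contrast that chose them. Icam2 and Emcn went up and down together. After the group means were taken out, their log2 values had a Pearson r of 0.96 over the 8 animals, given as a description. Gpihbp1 followed neither, at 0.25 with Icam2 and 0.073 with Emcn. The SD between the 3 hybridisations of an animal was 0.17 for Gpihbp1, 0.19 for Icam2 and 0.13 for Emcn, against SDs between animal means of 0.25, 0.24 and 0.22 in the same order.

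Icam2 and Emcn also moved with other endothelial genes from animal to animal. Of the 45 other pan-endothelial and capillary genes that rose above the dim level in at least 1 animal, 43 had a positive r with Icam2 (median 0.62) and 43 with Emcn (median 0.63), while only 21 had a positive r with Gpihbp1 (median -0.0038). Over all 15806 genes treated alike, the median r was 0.11 with Icam2, 0.14 with Emcn and 0.018 with Gpihbp1. These medians are above 0, so most of all genes had a positive r too, and their share was not counted. Knockout animals 3 and 4, the low pair for Icam2 and Emcn, had medians of -0.54 and -0.60 over the 46 endothelial genes, in log2 units relative to the control mean. Knockout animals 1 and 2 had -0.28 and -0.12, and the control animals lay between -0.11 and 0.11. By the titles, animals 1 and 2 of each group are in a lower run of animal numbers and the others in a higher one. So the low knockout pair is also the higher-numbered pair. Control animals 3 and 4 also lay below control animals 1 and 2. Relative to the control mean, Icam2 read 0.048 and 0.096 against -0.027 and -0.117, and Emcn 0.158 and 0.062 against -0.093 and -0.127. The medians of the 46 were 0.096 and 0.115 against -0.050 and -0.113. Gpihbp1 did not split by run in either group. Among the lower-numbered animals the log2 differences were -1.03 for Gpihbp1, -0.59 for Icam2 and -0.45 for Emcn, and among the higher-numbered animals -1.10, -1.01 and -0.73. The part of the animal numbering in these differences, and in the r values of Icam2 and Emcn, was not tested.

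The genes nearest to each of the 3 in this animal-to-animal pattern had r values of 0.965 to 0.988 over 8 animals, and with 15806 genes searched such values are the extremes of a long list. Those nearest to Gpihbp1 were Dbp, a clock-controlled transcription factor (r = 0.986), Per2, a repressor of the circadian clock (0.983), and Agfg2 (0.965). Dbp read 15.29, 14.75, 14.48 and 15.24 (log2) in HiraCKO animals and 14.61, 15.38, 15.20 and 14.35 in control animals. Per2 read 11.54, 10.57, 10.32 and 11.62 in HiraCKO animals and 10.99, 12.06, 12.20 and 10.57 in control animals. Both were high in the animals in which Gpihbp1 was high within its group, and neither passed the test between groups (differences 0.05 and -0.44; limma, adjusted p = 0.918 and 0.524). The time of day of dissection is not given in the labels. The nearest to Icam2 were the growth factor receptor Egfr, Tmem255a and the co-chaperone Bag5, and those to Emcn were Cnn2, an actin-binding calponin, the immediate early gene Ier2 and Kctd20. None of these 9 genes passed the test between groups (limma), and 5 of them had an unadjusted p under 0.05. Over all genes 9.28% passed and 24% had an unadjusted p under 0.05, and with 9 genes nothing is read from these counts. Their log2 differences went in both directions, from -0.47 for Cnn2 to 0.72 for Tmem255a.

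**Figure D2:**
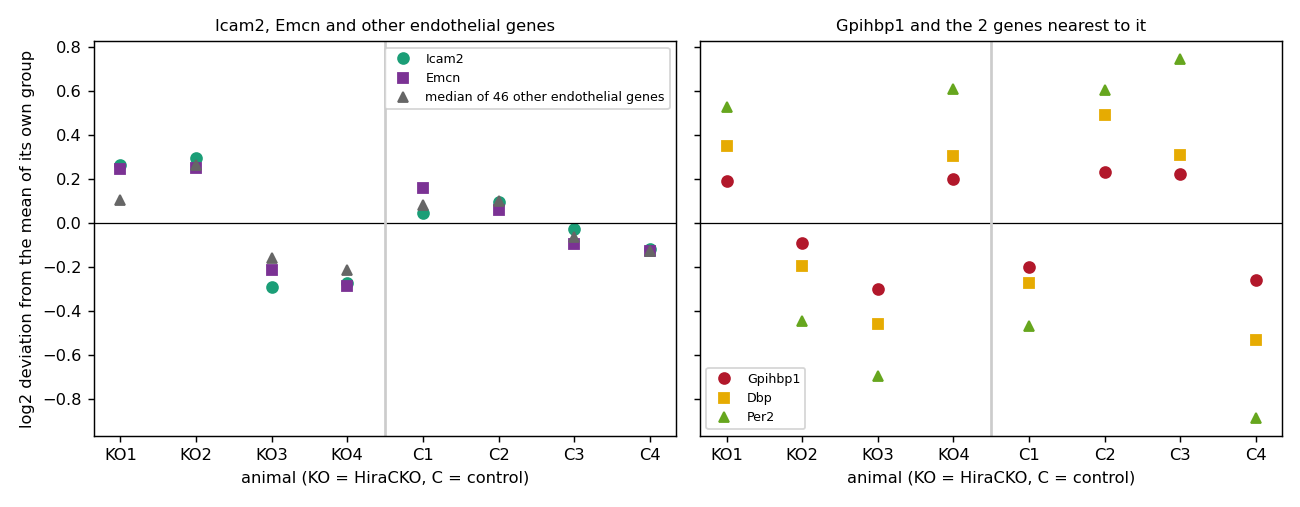
Log2 deviation of each animal from the mean of its own group (KO, HiraCKO; C, control). On the left Icam2 and Emcn are set beside the median of 46 other endothelial genes, and on the right Gpihbp1 beside Dbp and Per2. On the left knockout animals 3 and 4 are low, and control animals 3 and 4 to a smaller extent. On the right knockout animals 2 and 3 and control animals 1 and 4 are low.

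Most other endothelial genes were read lower in HiraCKO muscle too, and how many passed the test depended on the processing. Of 46 measured pan-endothelial and capillary genes (50 listed), 4 fell and 0 rose (limma over all genes), a share of 8.70% against 5.01% of all genes that fell. Their median log2 difference was -0.40, against -0.066 over all genes, with 41 of 46 below 0 (59.7% of all genes). Aqp7 was counted as not below 0 from its brightest row, at 0.01, while its other rows read -0.49 and -0.48. An unadjusted p under 0.05 was found for 25 of the 46, and for 24% of all genes. In 11 of the 46, or 23.9%, all HiraCKO animals lay below all control animals, against 10.2% of all genes. The count of 4 was 28 with all 24 arrays and animal as a random effect, 24 with the hybridisation number as a replicate block, 14 with array weights and 13 with the run of animal numbers as a block. It was 11 without knockout animal 2, 11 under quantile normalization, 9 without the 2 arrays of highest background, and 0 and 1 among the lower-numbered and the higher-numbered animals alone. Under each of these settings 0 of the 46 rose. The random effect and replicate block fits each took 1 correlation between arrays of an animal for all genes. Their p comes out too small for a gene whose arrays within an animal are more alike. The number of all genes that fell moved with the settings too. From 888 in the main fit it went to 1815 with the random effect and 1685 with the replicate block. It was 2333 with array weights and 1082 with the run of animal numbers as a block. It was 687 without knockout animal 2, 1329 under quantile normalization and 1138 without the 2 arrays of highest background. Among the lower-numbered and the higher-numbered animals alone it was 11 and 197. The lists were written with earlier results of these data known. The summed intensity of the 46 was 403009 to 614846 in HiraCKO and 571271 to 700219 in control animals, so the sums overlapped. Bright genes weigh most in such a sum, and Plvap alone made up 20.0% to 25.4% of it. Without Plvap the sums were 300833 to 492105 in HiraCKO and 445763 to 543574 in control animals, which overlapped too.

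The 4 that fell were S1pr1, Timp4, Car4 and Erg. S1pr1, a receptor for sphingosine 1-phosphate that stabilises endothelial junctions, read 12.20 ± 0.19 (log2, SD, n = 4) in HiraCKO and 13.21 ± 0.43 in control muscle, 2.01 times lower (limma, adjusted p = 0.00981). Timp4, a metalloprotease inhibitor, was 1.94 times lower (adjusted p = 0.0275, limma), and removal of any 1 of 5 animals (knockout 2 or 3, control 2, 3 or 4) took it past the threshold, to at most 0.071. Car4, a carbonic anhydrase of the capillary surface, was 1.76 times lower (adjusted p = 0.0138, limma). Erg, an ETS factor of endothelial cells, read 7.28 ± 0.21 in HiraCKO and 8.03 ± 0.19 in control muscle, 1.68 times lower (adjusted p = 0.0080, limma). S1pr1, Car4 and Erg kept an adjusted p under 0.05 without any 1 of the 8 animals.

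Several defining genes of endothelium did not pass, and they are named here for their role, after their values were seen. Pecam1, the junction protein CD31, differed by -0.52 ± 0.17 (log2, SE), with -0.57 and -0.50 in its other rows (limma, adjusted p = 0.0807). Cdh5, the cadherin of endothelial junctions, differed by -0.31 ± 0.18, the VEGF receptor Kdr by -0.38 ± 0.19 and the receptor Tie1 by -0.34 ± 0.16. All 4 were well above the dim level in both groups, so endothelial RNA was detected in HiraCKO and in control muscle. Sgk1, at 0.14, had the highest difference of the 46.

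**Figure D3:**
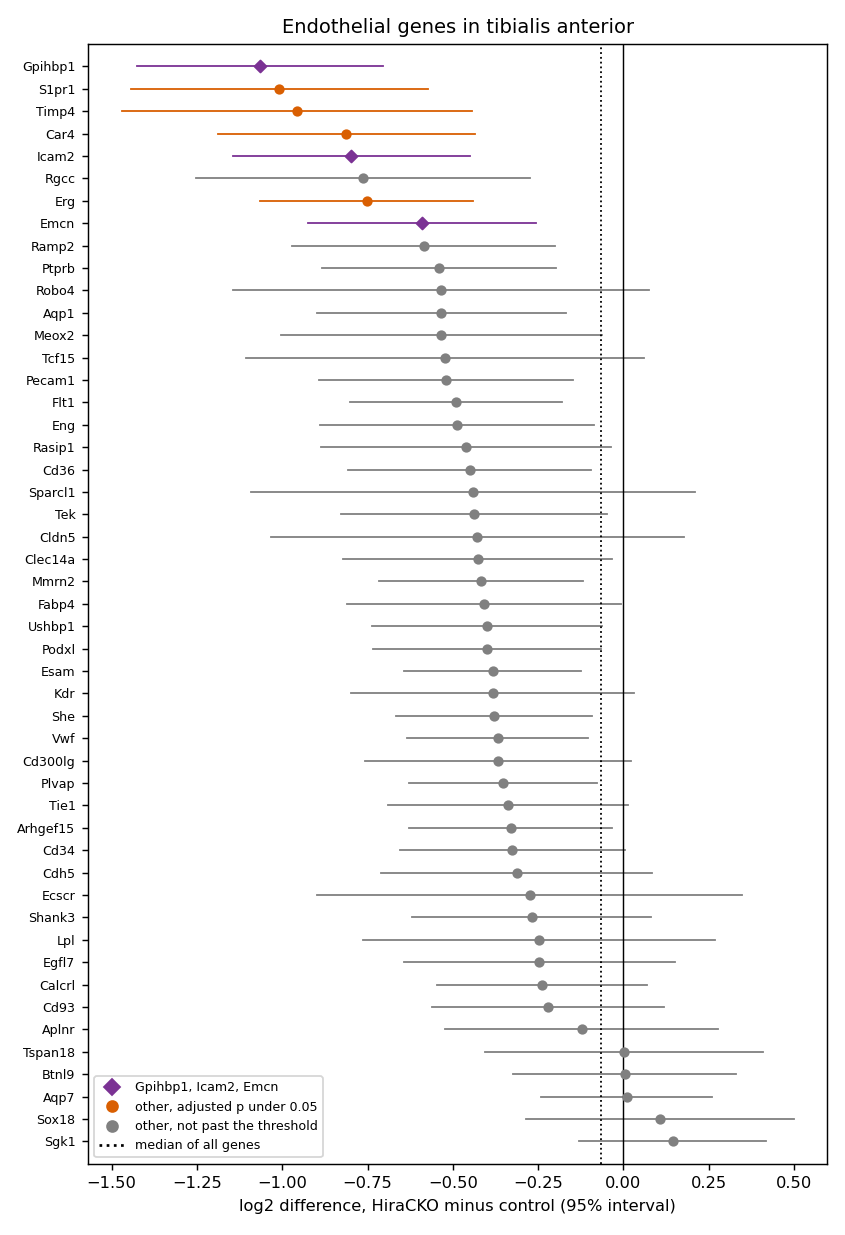
Log2 difference, HiraCKO minus control, with its 95% interval, for Gpihbp1, Icam2 and Emcn (purple diamonds), the 4 other endothelial genes that passed the test (orange) and the 42 that did not (grey). The dotted line is the median of all genes, -0.066, and 41 of the 46 other genes lie below 0.

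Genes of particular vessel types were listed apart. Of 12 arterial genes 2 fell, the guidance factor Sema3g (1.64 times lower; limma, adjusted p = 0.0111) and the kinase Bmx (at least 1.50 times lower, its knockout level being dim; adjusted p = 0.0101), with a list median of -0.24. Of 11 venous genes 0 fell and Flrt2, an adhesion and guidance protein, rose 1.64-fold (adjusted p = 0.00758, limma), with a median of -0.14. Of 5 lymphatic genes 0 passed by limma, with a median of 0.018, and 1 of them, Mmrn1, had an unadjusted p under 0.05 (0.0109). Of 21 endothelial transcription factors Erg fell and none rose, with a median of -0.30. The share that fell was 16.7% of arterial genes and 4.76% of the transcription factors, against 5.01% of all genes. The share that rose was 9.09% of venous genes, which is 1 gene, against 4.28% of all genes. An unadjusted p under 0.05 was found for 4 of the arterial genes, 4 of the venous genes and 7 of the transcription factors. Over all genes the share was 24%. Below 0 were 11 of the arterial genes, 8 of the venous genes and 17 of the transcription factors, against 59.7% of all genes. Differences between these lists were not tested.

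Genes that work with GPIHBP1 were followed as a list. Of 23 measured genes of lipoprotein lipase and fatty acid uptake 1 fell, Vegfb, and 0 rose, with a median of -0.19. The share that fell, 4.35%, is near the 5.01% of all genes, so the count says nothing particular of the list. Vegfb, a fibre-made growth factor that acts on endothelial Flt1 and on fatty acid uptake, read 15.35 ± 0.07 in HiraCKO and 16.01 ± 0.18 in control muscle (log2), 1.58 times lower (limma, adjusted p = 0.0066). Its receptor Flt1 differed by -0.49 ± 0.14 (log2, SE; adjusted p = 0.054) and the fatty acid transporter Cd36 by -0.45 ± 0.16 (adjusted p = 0.111), both named for their role. The row of Lpl, the enzyme that GPIHBP1 carries, was dim in both groups, so no fold is given for it. The 10 measured genes of the LY6 and uPAR list, of 31 listed, had a median of -0.097 and 0 passed by limma. In that list only Cd59b, dim in both groups, had an unadjusted p under 0.05 (0.0133). The list does not hold the whole family: Ly6a2, which is outside it, fell and is given with the chromosomal neighbours below.

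Among the kin, ligands and linkers of ICAM2, 1 of 16 rose and 1 fell, with a median of 0.12. Each is 6.25%, near the 4.28% and 5.01% of all genes. Icam4, a relative known from red cells, read 10.79 ± 0.18 in HiraCKO and 9.93 ± 0.12 in control muscle (log2), 1.82-fold higher (limma, adjusted p = 0.00183). Itgax, an integrin subunit of myeloid cells, was 1.49 times lower (adjusted p = 0.0439, limma), a call that ended on removal of any animal except control animal 3 and then reached an adjusted p of up to 0.125. The chains of LFA-1, Itgal and Itgb2, named for their role, differed by -0.02 ± 0.15 and 1.31 ± 0.61 (log2, SE) and did not pass. For Itgb2 knockout animal 3, at 13.14, stood above the other HiraCKO animals, at 9.77 to 10.48 (log2), and without it the difference was 0.54. The linker moesin, Msn, differed by -0.05 ± 0.15. Of 17 genes of endothelial junctions and leukocyte adhesion 0 passed by limma, although all 17 were below 0 (median -0.13). Over all genes 59.7% were below 0. An unadjusted p under 0.05 was found for 4 of the 17, the smallest for Esam (0.00762), and for 24% of all genes.

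Of 17 measured sialomucins, selectin ligands and enzymes of their sugars, the class to which endomucin belongs, 1 rose and 1 fell, with a median of -0.090. Each is 5.88%, near the 4.28% and 5.01% of all genes. St3gal1, which adds sialic acid to the core sugars of mucins, rose 1.80-fold (limma, adjusted p = 0.00173). C1galt1c1, the chaperone needed to build that core, was 1.42 times lower (adjusted p = 0.0156, limma), and without knockout animal 3 its adjusted p was 0.0547. Of 22 angiogenic factors and receptors 1 fell, Vegfb, and 0 rose (median -0.28). The share that fell was 4.55%, near the 5.01% of all genes.

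Genes of cells that surround or circulate in vessels were measured beside the 3 genes. Of 16 smooth muscle and pericyte genes 4 fell and 1 rose, 25% and 6.25% against 5.01% and 4.28% of all genes, with a median of -0.30. Acta2, smooth muscle actin, was 1.54 times lower, Rgs5, a pericyte gene, 1.52 times and Tagln 1.50 times (limma, adjusted p of 0.00988 to 0.0148), while Lmod1, a leiomodin, rose 1.70-fold (adjusted p = 0.0209). The last of the 4, Smtn, smoothelin, named after its values were seen, was 1.36 times lower (adjusted p = 0.0365, limma), a call that ended on removal of any animal except control animal 3, at up to 0.119. The call of Lmod1 ended without knockout animal 1 or control animal 1 or 4, at up to 0.0544. The summed intensity of these 16 genes did not overlap, at 170694 to 198223 in HiraCKO and 214788 to 255816 in control animals, but Des, the desmin gene, which muscle fibres express strongly too, made up 43.8% to 50.3% of it. Without Des the sums were 91996 to 101111 in HiraCKO and 110624 to 131681 in control animals. Only Cnn1 was dim in both groups. Of 3 red cell genes (11 listed) Alas2, the first enzyme of haem synthesis, was 2.06 times lower (adjusted p = 0.0189, limma). The sums of the 3, 1236 to 2625 in HiraCKO and 2864 to 4009 in control animals, are 86.1% to 94.4% Alas2 and so restate it, Slc4a1 being dim in HiraCKO and Epb42 in both groups. The call of Alas2 ended without knockout animal 3 or control animal 3, at up to 0.0561. The part of these cells in the values of the 3 genes was not tested.

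Platelets and leukocytes, the other carriers of ICAM2, were followed through their own genes. Of 12 platelet genes 0 passed by limma and 2 had an unadjusted p under 0.05 (smallest 0.0227, Tubb1), with a median of -0.16 and 4 of the 12, Itga2b, Gp5, Clec1b and Tubb1, dim in both groups. Their sums were 9387 to 10946 in HiraCKO and 9729.9 to 12878 in control animals. Of 12 lymphocyte genes Cd3e, a T cell receptor chain, rose 1.51-fold (limma, adjusted p = 0.00629). Cd79b, of the B cell receptor, was 1.39 times lower (adjusted p = 0.0389), a call that ended without any 1 of 6 animals (all except knockout 4 and control 2), at up to 0.124. Of 16 macrophage genes Cx3cr1, a chemokine receptor, rose 1.86-fold (adjusted p = 0.0184, limma; 0.0572 without control animal 1). Cd163, a haemoglobin scavenger receptor, was 1.91 times lower (adjusted p = 0.049, limma), a call that ended without any 1 of 6 animals (all except knockout 1 and control 1), at up to 0.13. Of the lymphocyte genes 8.33% fell and 8.33% rose, and of the macrophage genes 6.25% each. Over all genes 5.01% fell and 4.28% rose.

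Other cells of the muscle were measured alongside. Of 9 Schwann cell genes S100b and Mal fell, by 1.72 and 1.58 times (limma, adjusted p = 0.0233 and 0.0334), with a median of -0.45. Both calls ended without knockout animal 3 or 4 or control animal 3, and for S100b also control animal 4, for Mal control animal 2, at up to 0.0968. Of 10 adipocyte genes the hormone gene Lep (at least 1.38 times lower), the lipid droplet gene Cidec (2.33 times) and Cfd, or adipsin (2.46 times), fell. Ucp1, the uncoupling protein of brown fat, rose 4.87-fold, and the list median was -0.33. The call of Cfd ended without any 1 of 6 animals (all except control 1 and 2), at up to 0.0948. Of 8 satellite cell genes Calcr alone passed, at least 1.34 times lower with a dim knockout level (adjusted p = 0.00222, limma). Of 14 fibroblast genes 0 passed by limma, with a median of -0.086 and 5 at an unadjusted p under 0.05 (smallest 0.0115, Mfap5). None of the 12 measured fibre genes was dim in either group, 0 passed by limma (1, Cacna1s, had an unadjusted p under 0.05, 0.0143), and their median was -0.18. The share that fell was 22.2% of Schwann cell, 30% of adipocyte and 12.5% of satellite cell genes, against 5.01% of all genes. Of the adipocyte genes 10% rose, against 4.28% of all genes. An unadjusted p under 0.05 was found for 24% of all genes.

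**Figure D4:**
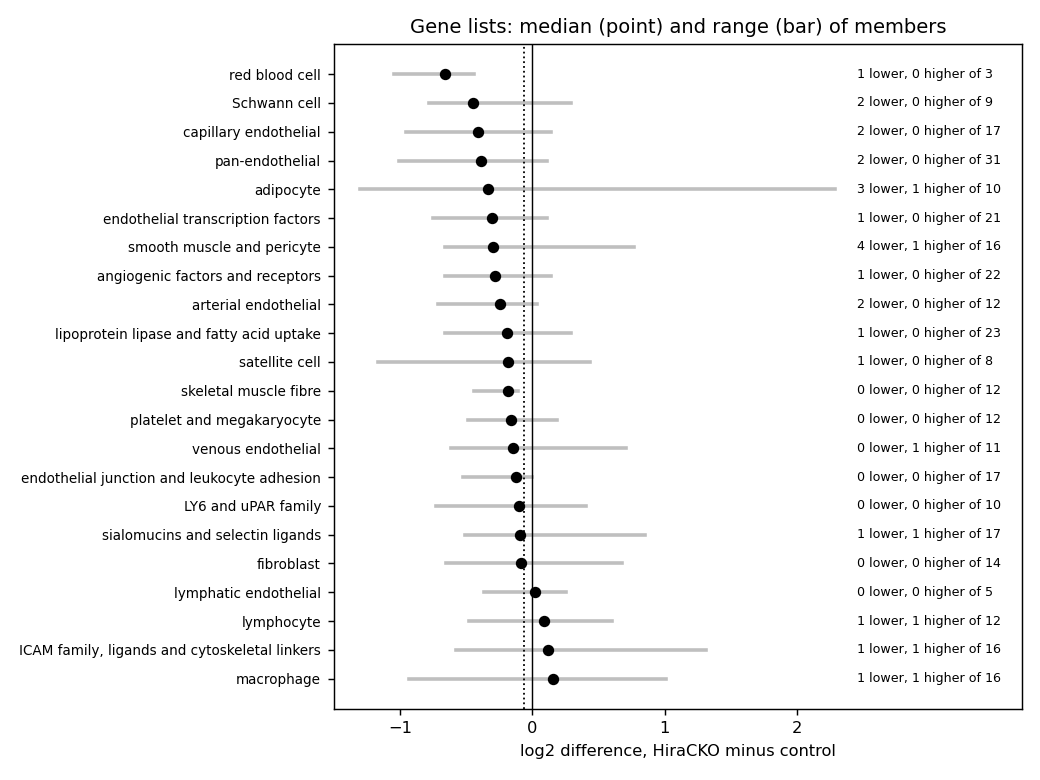
Median (point) and range (bar) of the log2 differences, HiraCKO minus control, of the measured genes in each list, without Gpihbp1, Icam2 and Emcn, with the numbers past the test at the right. The dotted line is the median of all genes (-0.066). The medians run from -0.66 in 3 red cell genes to 0.15 in 16 macrophage genes.

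The 3 genes lie on chromosomes 15 (Gpihbp1), 11 (Icam2) and 3 (Emcn), and the 4 nearest measured protein-coding genes on each side differed in both directions. Around Gpihbp1 the median log2 difference of 8 neighbours was -0.17, and 2 of them fell, its neighbour of the LY6 family Ly6a2 (1.39 times lower; limma, adjusted p = 0.0441) and the mitochondrial topoisomerase Top1mt (1.40 times lower; adjusted p = 0.0237). The call of Ly6a2 ended without any 1 of 6 animals and that of Top1mt without any 1 of 4, at adjusted p up to 0.131. Around Icam2 the median was -0.11, with Prr29, the adjoining gene, 1.82-fold higher (adjusted p = 0.00122, limma) and Cd79b lower as given above. Around Emcn the median was 0.067, and Dapp1, an adaptor of lymphocyte signalling, rose 1.998-fold (adjusted p = 0.00991, limma). Over all genes 5.01% fell and 4.28% rose, and with 8 neighbours per gene nothing is read from these counts.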

How the data were processed

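Per the deposited values, the authors gave a linear intensity for each of 26423 rows on each array and scaled all 24 arrays to a common median of 626. No source used here states the scanner, the background correction or the scaling method. Intensities under the 5th percentile of the whole table, 38.8, were raised to it before log2 was taken. Animal means over 3 hybridisations entered the tests, and the number of animals limits the precision. The array's old annotation names 1 symbol on 20377 rows, of which RefSeq (GRCm38.p6) holds 18213 as current symbols and 2126 as synonyms. Where a gene had several rows, that of the highest mean was used, for 17742 genes. HiraCKO was set against control by limma 3.58.1 (R 4.3.3) across all genes, with Benjamini-Hochberg adjustment and a threshold of 0.05. A fold is the antilog of a log2 difference, and one against a row at or under 125 is a lower bound. The fit was tested on simulated data. Nothing in the labels says that the animals share or do not share a litter.

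The 3 genes and all lists were chosen with earlier results of these data known. Genes named are Hira, the 3 genes, up to 4 list members that passed (2 of smallest p where none did, of which some are given only by count), the 3 genes nearest to each of the 3 in within-group r, and called neighbours; others are said to be named for their role. Animal numbers here follow the deposit and pair nothing. Alternatives were quantile and cyclic loess normalization, an added constant, a higher floor, a filter on dim rows, other uses of the rows and hybridisations, a variance trend, array weights, the series of animal numbers, and leaving out animals or hybridisations. Leaving out the 2 arrays with the highest background was added after seeing the data.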

Additional observations from a re-analysis of the deposited data

Results flagged for a closer look

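In 57 named genes, 114 groups of 4 animals were searched for 1 animal far from the other 3, and 3 were found, where chance gives about 1 in 20 groups. Cacna1s, the calcium channel of the fibre's transverse tubules, read 15.89 (log2) in knockout animal 1, against 15.58 to 15.61 in the other knockout animals. Cd59b read 6.30 in knockout animal 4, against 5.58 to 5.70 in the others, all dim values. Tubb1, a tubulin of platelets, read 6.50 in control animal 2, against 7.02 to 7.05 in the other controls. Gpihbp1, Icam2 and Emcn had no such animal in either group.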

How the results depend on the processing

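The differences of Gpihbp1, Icam2 and Emcn stayed below 0 under all 27 alternatives and moved by less than 1 SD between animals, at -1.15 to -0.97 for Gpihbp1, -1.01 to -0.59 for Icam2 and -0.73 to -0.45 for Emcn (log2). Several alternatives could not move them, as each gene had 1 row, no dim array and equal groups. These were the higher floor, the dim filter, other uses of the rows, the random effect, the block settings and the variance trend. The others reuse the contrast that chose the genes. The adjusted p that had chosen Emcn was above 0.05 without any 1 of 6 animals (limma, up to 0.104), and for Gpihbp1 and Icam2 it was not without any 1 of 8. It was also above 0.05 for Emcn with the higher floor (0.0531), without hybridisation 2 (0.0585) and among the lower-numbered animals alone (0.217), for Gpihbp1 among the lower-numbered (0.121) and the higher-numbered (0.0816), and for Icam2 among the lower-numbered (0.158). The counts moved more. The number of other endothelial genes that fell, 4 in the report, was 11 under quantile normalization, 8 under cyclic loess, 9 with the filter on dim rows, 11 with a variance trend, 14 with array weights, 13 with the run of animal numbers as a block, 7 without hybridisation 3 and 9 without the 2 arrays of highest background. It was 28 with 24 separate arrays and a random effect of animal, and 24 with the hybridisation number as a replicate block. It was 0 among the lower-numbered animals alone and 1 among the higher-numbered (2 animals per group), and 3 to 11 without 1 animal (11 without knockout animal 2). The random effect and replicate block fits both used all 24 arrays. Each took 1 correlation between arrays of an animal for all genes, 0.378 in the first. For a gene whose arrays within an animal are more alike, the p comes out too small. The number of all genes that fell, 888 in the main fit, was 1127 with the filter on dim rows, 1149 with a variance trend and 882 without hybridisation 3. The count of all genes past the threshold, 1647, was 2569 under quantile normalization, 3609 with array weights, 3149 with the random effect, 2978 with the replicate block, 62 among the lower-numbered animals alone, 508 among the higher-numbered, and 945 (without knockout animal 3) to 1693 without 1 animal (1062 without control animal 1). With cyclic loess it was 2463, 1309 higher and 1154 lower, against 759 and 888. The cause of these shifts was not tested. The fits within a numbered run also had fewer animals, 2 per group. Rows below 125 limit what can be said of Lpl and other dim genes. Hybridisation numbers were checked for pairing: deviations of arrays of the same number in different animals correlated at a median of 0.042 over 84 pairs (-0.63 to 0.75), so they were not taken as pairs.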
